A study of Homo sapiens with 6 samples.

Results

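The nuclear genes of oxidative phosphorylation encode most subunits of the respiratory chain and of the ATP synthase. They were chosen here by name alone, from the gene symbol that the platform gives each probe set: symbols beginning with NDUFA, NDUFB, NDUFC, NDUFS, NDUFV, UQCR or ATP5, those of the COX4 to COX8 families, the SDH genes, CYC1 and CYCS. The choice found 177 of 54613 non-control probe sets and 92 of 19775 gene symbols. Of these symbols, 33 were subunits of complex I, 3 of complex II, 7 of complex III, 17 of complex IV and 17 of complex V, and 1 was CYCS, the soluble electron carrier cytochrome c. The same name rule also took in the ATP synthase inhibitor ATP5IF1, 8 complex I assembly factors (NDUFAF1 to NDUFAF8) and 5 noncoding or pseudogene symbols, which were kept apart from the 78 subunit and carrier genes. Another 15 probe sets that carry several symbols also met the name rule and were not named. SDHB had no probe set of its own symbol among those used and was not analysed here.

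Expression was measured on 6 Affymetrix HG-U133 Plus 2 arrays of Hep3B, an established human hepatocellular carcinoma line. Cells were transduced with viral particles encoding a TuD against miR-17 (3 arrays, miR-17 TuD) or an NC TuD (3 arrays), where a TuD, or tough decoy, is an RNA that binds and sequesters mature microRNAs. Both groups were infected at a multiplicity of infection of 5 for 48 h with 10.0 µg/mL polybrene, selected with 1.0 µg/mL puromycin, and pooled from resistant colonies after 2 weeks, so each group is 1 pooled stable line. The sample descriptions also hold a code that reads PLUSDOX on all miR-17 TuD arrays, NODOX on all NC TuD arrays, and 72HR on all 6. What that code records is not explained, it follows the groups exactly, and it cannot be told apart from the TuD. Nothing states that the 3 arrays of a group came from separate cultures, so the p-values measure only the spread between these arrays, which may be technical. The arrays carry no probe set for the mature microRNAs, so their sequestration was not measured here.

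Oxidative phosphorylation takes electrons from NADH at complex I and from succinate at complex II, passes them through coenzyme Q to complex III, by cytochrome c to complex IV, and finally to oxygen. Complexes I, III and IV pump protons across the inner mitochondrial membrane, and complex V uses the gradient to make ATP. Most subunits are encoded in the nucleus and must be balanced with the few made from mitochondrial DNA, and hepatocytes are rich in mitochondria.

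The decoy is labelled as directed at miR-17, which belongs to a family of microRNAs with a common seed. The mature sequences, from RefSeq (GRCh38.p14), are shown to let miR-17 be compared with its relatives; which of them the decoy binds was not measured. The capitals mark the seed, bases 2 to 8, and it is the same in all 6.
hsa-miR-17-5p: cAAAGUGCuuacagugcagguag
hsa-miR-20a-5p: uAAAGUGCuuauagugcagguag
hsa-miR-20b-5p: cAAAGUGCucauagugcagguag
hsa-miR-93-5p: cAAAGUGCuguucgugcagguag
hsa-miR-106a-5p: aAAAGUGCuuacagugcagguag
hsa-miR-106b-5p: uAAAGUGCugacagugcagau

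Few oxidative phosphorylation genes changed, and none fell. Of 86 member genes that passed the filter on low values, 7 were higher in miR-17 TuD and 0 were lower at an adjusted p under 0.05 by limma with Benjamini-Hochberg adjustment over 13949 genes, a share of 8.14%. Over all genes tested the share called was 11.4%, with 6.78% higher and 4.6% lower, so the members' share of calls lay below that of all genes. The order of these 2 shares turned with no filter on low values (4.35% of members against 3.99% of genes) and without miR-17 TuD array 2 (6.98% against 5.82%). It also turned with the replicate number as a block (6.98% against 5.89%). At an unadjusted p under 0.05, 26 of 86 members were higher and 2 lower, beside 2160 and 1720 of the 13949 genes. The 7 genes were COX7A2L, NDUFAF6, NDUFA9, NDUFV3, NDUFA10, UQCRC1 and NDUFS1, and their differences ran from 0.15 to 0.42 on the log2 scale. Fewer calls were left with 1 array out: 1, 2 and 3 of the 7 passed without NC TuD array 1, 2 or 3, and 4, 5 and 5 of them without miR-17 TuD array 1, 2 or 3. The share over all genes fell as well, to 2.68%, 2.68% and 3.67% without an NC TuD array and to 7.92%, 5.82% and 8.91% without a miR-17 TuD array. NDUFAF6 was the one gene that passed in all 6 of those fits. The 5 symbols COX6A2, COX6B2, COX7A1, COX7B2 and COX8C, and the pseudogene COX6A1P1, did not pass the filter.

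The direction of the small differences leaned upward. Of the 73 subunit genes tested, 55 had a positive difference (miR-17 TuD minus NC TuD) and 18 a negative one, or 75.3% positive, whereas 49.7% of all genes were positive. Over all 13949 genes, 6934 were positive and 6087 negative. The rest lay within 0.001 of 0 and count as not positive in the 49.7%. The median difference of the subunits was 0.037 log2, with quartiles at 0.0016 and 0.093, against 0.0006 for all genes. In 25 subunits all 3 miR-17 TuD values lay above all 3 NC TuD values, and in 3 all lay below. Over all genes those shares were 18.3% and 14.7%. The subunit differences were small: 72 of 73 were under 0.25 log2 in size, and in 66 the whole 95% interval lay within 0.25 of 0. Over all 13949 genes, 12268 and 7915 met those 2 criteria. The intervals, like the p-values, measure only the spread between these arrays.

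Much of this set is abundant, so the background was also taken among abundant genes. Above a mean log2 level of 10, 17.9% of 5670 genes passed, and 6 of 71 subunits (8.45%) did. In that range 55.3% of genes had a positive difference, with a median of 0.017, and 76.1% of subunits did, with a median of 0.039. By level, 1 of 7 subunits between levels 10 and 12 passed, 4 of 12 between 12 and 13, 1 of 29 between 13 and 14, and 0 of 23 above 14. The shares over all genes in the same bands were 17.9%, 19%, 17.4% and 15.8%.

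Arrays of 1 group also differed in these genes together, which bears on differences this small. NC TuD array 2 was the lowest of its group in 56 of the 73 subunits, by a median of 0.031 log2 below the group mean. That array was the lowest of its group in 40.4% of the 5670 genes above level 10. Within miR-17 TuD, array 1 was the highest in 41 subunits and array 2 the lowest in 44. Among the 5670 genes, array 1 was the highest in 28.4% and array 2 the lowest in 31.8%. Without NC TuD array 2 the median difference of all members fell from 0.037 to 0.022, and without miR-17 TuD array 1 it was 0.021. The part of these array-wide shifts in the results was not tested.

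**Figure D1:**
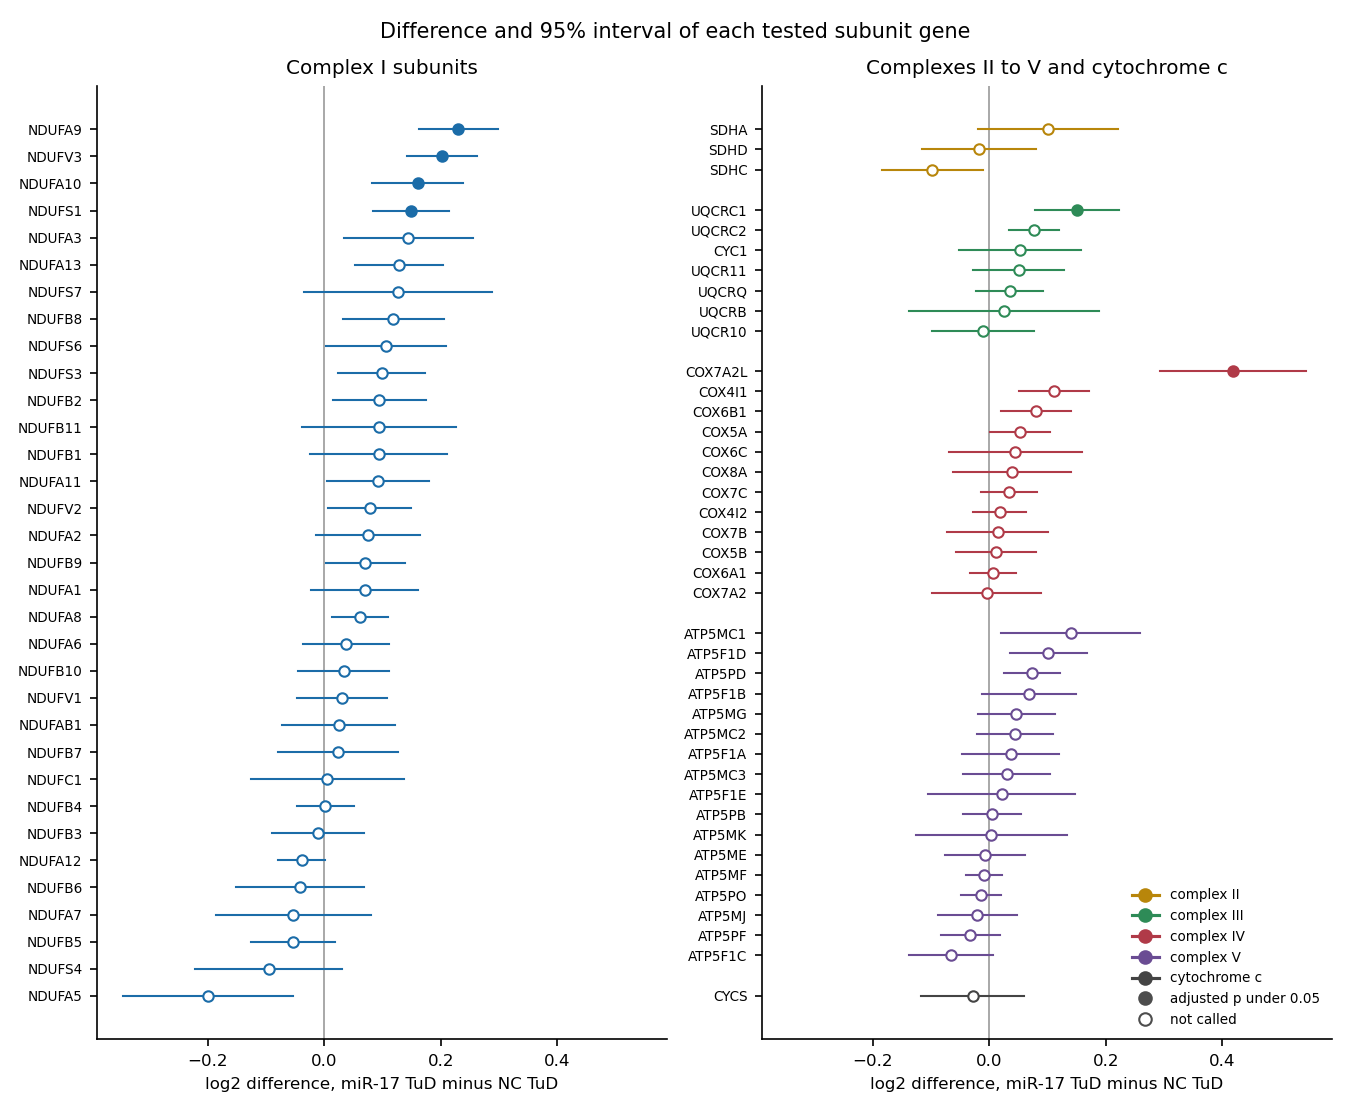
Difference in log2 expression (miR-17 TuD minus NC TuD, x axis) for each tested subunit gene, grouped by complex, with 95% confidence intervals from limma; filled points passed an adjusted p of 0.05. Most points lie slightly right of 0, with COX7A2L (0.42) farthest right and NDUFA5 (-0.20) farthest left.

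Array-wide measures lay close together, while liver markers did not. Correlations between arrays over all probe sets ran from 0.9994 to 0.99965 within groups and from 0.99879 to 0.99914 between them, and 36.7% to 37.1% of probe sets on each array sat within 0.001 log2 of the lowest deposited value, 2.12. The 3′ minus 5′ difference of GAPDH was -0.26 to -0.24 over the 6 arrays, and that of ACTB was 0.68 on each miR-17 TuD array and 0.69 to 0.71 on the NC TuD arrays, without overlap. Of 9 hepatocyte and hepatoma markers measured, 7 were lower in miR-17 TuD and 0 higher by limma. Their summed log2 level was 113.98 to 114.50 in miR-17 TuD and 118.69 to 118.98 in NC TuD. Differences were -1.31 for APOA1, an apolipoprotein, and -0.21 for albumin, ALB. SERPINA1, also among the 9, went the other way without being called, at 15.23 in miR-17 TuD against 15.10 in NC TuD, with no overlap. Of 15 markers of blood, endothelial, stromal and biliary cells, 10 were below level 4 on all arrays, among them CD3E, VWF, CDH5 and COL3A1 at the lowest value on all arrays and PTPRC and DCN at it on 5 of 6. The summed level of the 15 was 84.99 to 85.64 in miR-17 TuD and 84.03 to 84.59 in NC TuD. The keratins KRT7 and KRT19, EPCAM and the collagens COL1A1 and COL1A2 were expressed in both groups. In RNA from whole cultures, fewer cells of a kind and less RNA per cell cannot be told apart. The part of these shifts in the oxidative phosphorylation results was not tested.

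Complex I, which oxidises NADH, held 4 of the 7 calls among its 33 subunits (12.1%). The called genes were NDUFA9, NDUFV3, NDUFA10 and NDUFS1, all higher. The median difference over the complex was 0.070, with 26 positive and 7 negative, and 15 genes had no overlap upward and 1 downward. At an unadjusted p, 14 were higher and 1 lower. The share called was close to the 11.4% of all genes and under the 17.9% of genes above level 10, and 18.3% and 14.7% of all genes had no overlap upward and downward.

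NDUFA9, an accessory subunit that helps hold the quinone-binding module to the membrane arm, rose most among the complex I subunits. Its probe set 208969_at read 13.03, 13.01 and 13.04 on the 3 miR-17 TuD arrays and 12.82, 12.75 and 12.83 on the 3 NC TuD arrays. All miR-17 TuD values lay above all NC TuD values. The difference was 0.23 (SE 0.026, n = 3 and 3), a 1.17-fold change, with a limma adjusted p of 0.0137. Without NC TuD array 1 the adjusted p was 0.0568.

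NDUFV3, an accessory subunit of the NADH-oxidising module, read 12.10 on each miR-17 TuD array and 11.88, 11.87 and 11.95 on the NC TuD arrays (226616_s_at). The miR-17 TuD arrays barely varied, and the groups did not overlap. The difference was 0.20 (SE 0.023) with a limma adjusted p of 0.0138. A second probe set, 226209_at, gave 0.10 and overlapping groups, and without NC TuD array 1 or 2 the adjusted p was 0.06 and 0.0585.

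NDUFA10, an accessory subunit of the membrane arm, read 12.56, 12.48 and 12.56 in miR-17 TuD and 12.39, 12.33 and 12.39 in NC TuD (217860_at). Array 2 was the low one of both groups, and the groups did not overlap. The difference was 0.16 (SE 0.03) with a limma adjusted p of 0.0392, a call held in 1 of the 6 fits that leave out an array, where the highest adjusted p was 0.113. It was also lost when low values were left in (adjusted p = 0.0752), with array weights (0.0524) and with the gene's probe sets averaged, where the difference was 0.054 (0.0564).

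NDUFS1, the large core subunit that carries iron-sulphur clusters of the electron path from NADH, was called on 1 of its probe sets only. The probe set 203039_s_at read 12.42, 12.47 and 12.46 against 12.30, 12.27 and 12.34, with no overlap, a difference of 0.15 (SE 0.025) and a limma adjusted p of 0.0322. The call was lost in each of the 6 fits that leave out an array. The other NDUFS1 probe sets above level 7 did not show it: 229647_at gave -0.0008 and 236356_at gave -0.12.

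Called genes included, the 13 NDUFA genes had a median difference of 0.069, the 11 NDUFB genes of the membrane arm 0.033, and the 9 NDUFC, NDUFS and NDUFV genes 0.099. NDUFA13, also known as GRIM-19, differed by 0.13 (limma adjusted p = 0.0604) and NDUFB8, a subunit often used to follow complex I assembly, by 0.12 (adjusted p = 0.0963). The core subunits NDUFV1 and NDUFV2, which bind flavin and an iron-sulphur cluster, differed by 0.031 and 0.078 without passing. NDUFB4, the highest probe set of the complex, differed by 0.0016 with a 95% interval of -0.048 to 0.051, and NDUFA7, the lowest, by -0.053.

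NDUFA5, an accessory subunit of the peripheral arm, had the lowest point estimate. It read 11.34, 11.33 and 11.19 in miR-17 TuD and 11.47, 11.44 and 11.55 in NC TuD. Every miR-17 TuD value lay below every NC TuD value, yet the difference of -0.20 (SE 0.056) did not pass, with a limma adjusted p of 0.0957. NDUFS4, an accessory subunit of the NADH-oxidising module, differed by -0.096 (adjusted p = 0.284) with overlapping groups.

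**Figure D2:**
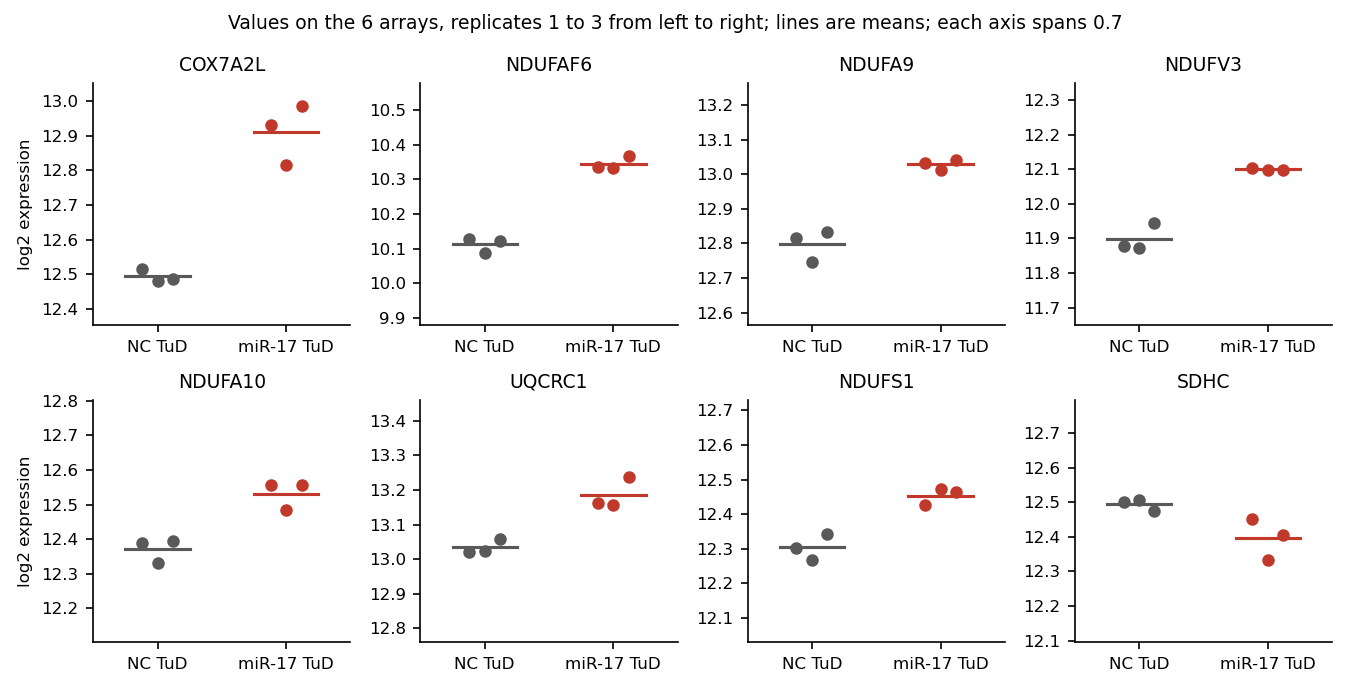
Log2 expression on each of the 3 miR-17 TuD and 3 NC TuD arrays for the 7 genes past the threshold and SDHC, which did not pass; every panel spans the same 0.7 log2, and horizontal lines are group means. COX7A2L shows the widest gap, from 12.49 in NC TuD to 12.91 in miR-17 TuD, while in SDHC the miR-17 TuD arrays lie lower.

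Complex II, succinate dehydrogenase, joins the citric acid cycle to the chain, and 0 of its 3 measured genes passed. The share over all genes was 11.4%, and 3 genes are too few to set against it. By limma at an unadjusted p under 0.05, 0 were higher and 1, SDHC, was lower, beside 2160 and 1720 of the 13949 genes. SDHC, a membrane anchor that helps bind coenzyme Q, read 12.45, 12.33 and 12.40 in miR-17 TuD and 12.50, 12.51 and 12.47 in NC TuD. The miR-17 TuD values lay below the NC TuD values, by 0.098 on average, and the limma adjusted p was 0.145. SDHD, the other anchor, differed by -0.018, and SDHA, the flavoprotein that oxidises succinate, by 0.10 (adjusted p = 0.246). The SDHA value comes from an x_at probe set, and near-identical SDHA pseudogenes may share its signal.

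SDHC was the gene with most probe sets, and these leaned downward. Of 6 above level 7, 5 had a negative difference and 4 had no overlap. The largest, 238191_at, read 8.14, 8.15 and 8.37 in miR-17 TuD and 8.66, 8.60 and 8.59 in NC TuD, a difference of -0.40. In the fit over 32768 probe sets its limma adjusted p was 0.058, and 216591_s_at gave -0.13 with an adjusted p of 0.0861. These probe sets read transcripts of the same gene on the same arrays and are not independent.

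Complex III, which passes electrons from coenzyme Q to cytochrome c, held 1 call among 7 genes (14.3%, beside 11.4% of all genes and 17.9% of those above level 10). UQCRC1, a core protein facing the matrix, read 13.16, 13.16 and 13.24 in miR-17 TuD and 13.02, 13.02 and 13.06 in NC TuD (201903_at). The groups were apart by 0.15 (SE 0.028) with a limma adjusted p of 0.0375, although 5 of the 6 fits that leave out an array lost it. Its partner core protein UQCRC2 differed by 0.077 (adjusted p = 0.0539), and both of its probe sets above level 7 had no overlap, at 0.077 and 0.10. The redox subunit CYC1, cytochrome c1, differed by 0.053 (adjusted p = 0.458). The small subunits UQCR10, UQCRB and UQCRQ lay between -0.011 and 0.035.

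Cytochrome c itself, CYCS, did not pass. Its main probe set read 14.998, 14.93 and 14.88 in miR-17 TuD and 14.97, 14.94 and 14.97 in NC TuD, a difference of -0.029 with a 95% interval of -0.12 to 0.06. All 3 CYCS probe sets had negative differences, down to -0.15 for 229415_at, whose limma adjusted p over probe sets was 0.0846.

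Complex IV, cytochrome c oxidase, included the largest change of the set. COX7A2L, related to the COX7A subunits and known for joining complexes III and IV into supercomplexes, read 12.93, 12.82 and 12.99 in miR-17 TuD and 12.52, 12.48 and 12.49 in NC TuD (201256_at). All miR-17 TuD arrays were higher by far more than the spread of either group. The difference was 0.42 (SE 0.048), a 1.34-fold change, with a limma adjusted p of 0.014. The size held between 0.38 and 0.47 in all alternatives, but without any 1 of the NC TuD arrays the adjusted p was 0.0609 to 0.0663. The call was also lost with the replicate number as a block.

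The other nuclear subunits of complex IV had smaller differences, and none passed. COX4I1, the ubiquitous form of the subunit that sets regulation by ATP, read 14.47, 14.47 and 14.50 in miR-17 TuD and 14.41, 14.33 and 14.37 in NC TuD. It differed by 0.11 without overlap and fell just outside the threshold, with a limma adjusted p of 0.0501. Its probe set 202698_x_at gave 0.10 and the weaker 213758_at gave -0.11. COX6B1, which faces the intermembrane space, differed by 0.08 (adjusted p = 0.0996), and COX5A by 0.053 (adjusted p = 0.174). COX6A1, the highest probe set of the complex, differed by 0.0067 with a 95% interval of -0.032 to 0.046. COX7A2, the liver form of its subunit, had the lowest point estimate, -0.0045. The complex as a whole had a median of 0.037 with 11 of 12 positive, beside 49.7% of all genes and 55.3% of those above level 10. Its 1 call among 12 tested genes (8.33%) stood beside 11.4% of all genes and 17.9% of those above level 10.

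Of the isoforms known from other tissues, all but COX4I2 were at the lowest value. COX6A2, COX7A1 and COX8C, forms of muscle or germ cells, were listed at the lowest value of 2.12 on all 6 arrays, as were COX6B2 and COX7B2, known from testis. COX4I2, the lung form, was listed near 7.07 and differed by 0.018 (limma adjusted p = 0.544). Their partners COX6A1, COX6B1, COX7A2, COX7B and COX8A were all measured above level 13 on their own probe sets. COXFA4, long known as NDUFA4 and now placed in complex IV, lies outside the name rule: it differed by -0.0074 (adjusted p = 0.799). The hypoxia-responsive COXFA4L2 differed by -0.26 (adjusted p = 0.211).

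Complex V, the ATP synthase, had no call among 17 genes, beside 11.4% of all genes and 17.9% of those above level 10. By limma at an unadjusted p under 0.05, 3 genes were higher and 0 lower: the delta subunit ATP5F1D (0.10, adjusted p = 0.0758), the stator subunit ATP5PD (0.073, adjusted p = 0.0776) and ATP5MC1 (0.14, adjusted p = 0.133). Over all 13949 genes, 2160 were higher and 1720 lower at that unadjusted threshold. ATP5MC1, ATP5MC2 and ATP5MC3 are separate genes for 1 mature c subunit, the rotor ring protein. ATP5MC2 differed by 0.044 and ATP5MC3 by 0.03, neither past the threshold. The catalytic beta subunit ATP5F1B differed by 0.068 and the alpha subunit ATP5F1A by 0.037. The gamma subunit ATP5F1C, the central shaft, had the lowest point estimate, -0.066 (adjusted p = 0.208), with its 3 probe sets above level 7 all negative. ATP5PF, a stator subunit and the highest probe set of the complex, differed by -0.033. ATP5MF was read only by a weak probe set, at 4.55 to 4.58, so little can be drawn from it. The median of the complex was 0.021 and its sign depended on the choices: it was -0.0098 without s_at and x_at probe sets, -0.0034 with a gene's probe sets averaged, and -0.0059 without miR-17 TuD array 1. ATP5IF1, which blocks the synthase when it would run in reverse, differed by -0.0077 with a 95% interval of -0.065 to 0.05.

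**Figure D3:**
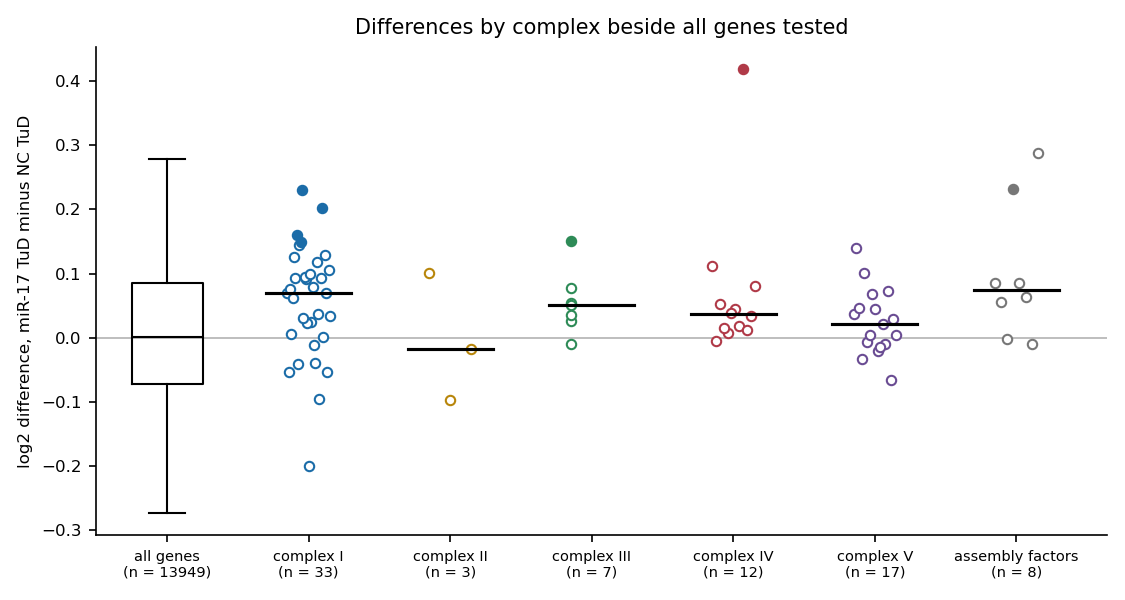
Differences in log2 expression (miR-17 TuD minus NC TuD, y axis) for all 13949 genes tested (box of quartiles with whiskers at the 5th and 95th percentiles) and for each tested gene of complexes I to V and the NDUFAF assembly factors (points, with a line at each median). The medians were 0.070 in complex I, -0.018 in II, 0.051 in III, 0.037 in IV, 0.021 in V and 0.074 for the assembly factors.

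Of the 8 NDUFAF genes, which help build complex I without staying in it, 1 passed (12.5%, near the 11.4% of all genes). NDUFAF6 read 10.33, 10.33 and 10.37 in miR-17 TuD and 10.13, 10.09 and 10.12 in NC TuD (235509_at). The gap was wide against a spread of about 0.02 in each group (SD 0.019 and 0.023, n = 3 each). The difference was 0.23 (SE 0.017), 1.17-fold, with a limma adjusted p of 0.00736. Averaging in a second, weak probe set near level 5 (230016_at, -0.12) reduced it to 0.055, with an adjusted p of 0.401. NDUFAF2 had the largest point estimate of the group, 0.29, with 10.01, 9.85 and 9.75 against 9.53, 9.60 and 9.63. Its groups did not overlap, but the miR-17 TuD arrays varied widely and the adjusted p was 0.0831. NDUFAF3 and NDUFAF7 differed by -0.011 and -0.0017.

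At the level of probe sets, 156 of the 177 members passed the filter and 16 of the 177 sat within 0.001 log2 of the lowest value on all arrays. By limma over 32768 probe sets, 5 of the 156 were higher and 0 lower, a share below the 5.83% over all probe sets. At an unadjusted p under 0.05, 30 were higher and 8 lower. No share over all probe sets was taken at that threshold, so no lean of the members can be read from these counts. The 5 were the probe sets of COX7A2L, NDUFAF6, NDUFA9, NDUFV3 and NDUFS1 named above. Of 30 genes with at least 2 tested probe sets above level 7, 13 were positive in all, 5 negative in all and 10 mixed. The genes of mixed sign included ATP5MG, from -0.18 to 0.052, ATP5MC3, from -0.083 to 0.081, and COX7B, from -0.12 to 0.015. In genes such as NDUFB2 (0.095 and 0.15), NDUFB8 (0.12 and 0.12) and COX5A (0.053 and 0.18) the probe sets ran the same way.

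**Figure D4:**
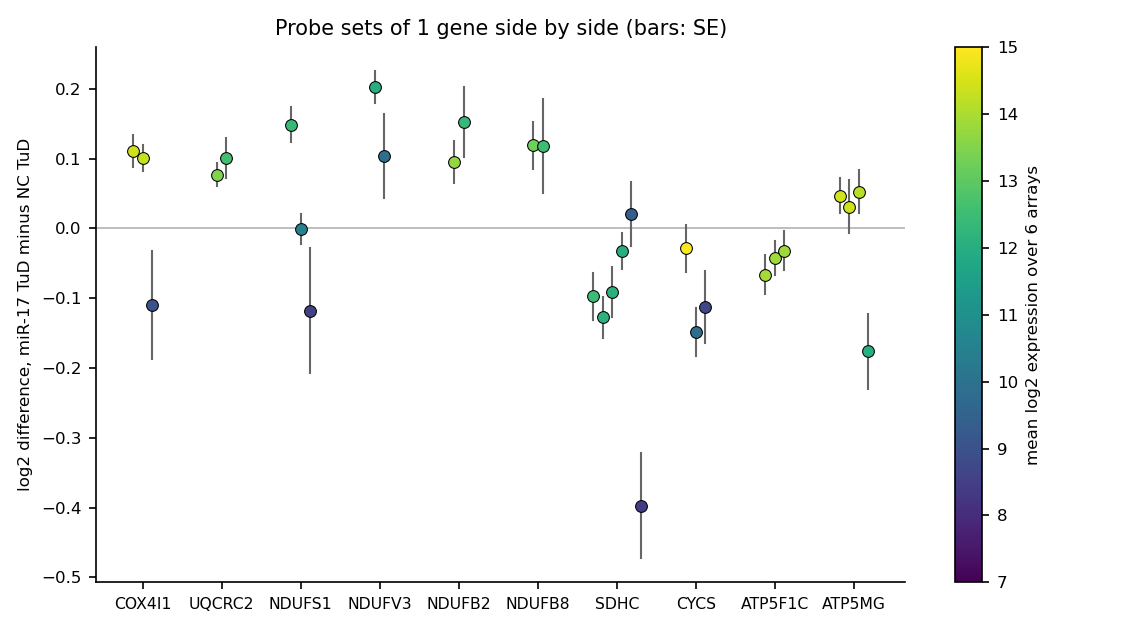
Differences in log2 expression (miR-17 TuD minus NC TuD, y axis) of each probe set above level 7 for 10 genes with several probe sets; bars are standard errors and colour is the mean log2 level. SDHC spreads from -0.40 to 0.020, and NDUFS1 from -0.12 to 0.15, whereas both NDUFB8 probe sets lie at 0.12.

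The promoters were searched for sequence features that the choice by name did not use. Windows of 300 bases, from 250 before to 50 after the start, came from RefSeq (GRCh38.p14) and matched 66 of the 78 subunit genes. Each was searched on both strands for the core GCATGCGC of NRF1, the core CCGGAAGT of ETS factors such as GABP, and AAGATGGC of YY1. NRF1 and GABP are regulators known for respiratory chain genes. The NRF1 core can overlap its own reverse complement, so windows were counted once whatever the number of matches. The NRF1 core was in 13 of 66 windows (19.7%) against 3.27% of 27305 windows. The ETS core was in 9 (13.6%) against 4.44%, and the YY1 core in 10 (15.2%) against 3.03%. The 27305 windows were those of all gene symbols with a window, expressed here or not. No background of expressed genes was taken, so whether these shares are particular to respiratory chain genes was not tested. Among 6 called members with a window, 0 held the NRF1 core, 1 the ETS core (NDUFS1) and 2 the YY1 core (NDUFA9 and UQCRC1). Of the 56 tested subunits that were not called, 13, 8 and 8 held the NRF1, ETS and YY1 cores. A match describes letters only and says nothing of binding in these cells.

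Below are 4 windows, chosen to show both sides of that comparison. NDUFA9 and UQCRC1 were called and hold the YY1 core just after the start, CYCS was not called and holds the NRF1 core, and COX7A2L, with the largest change, holds none of the cores. Each runs 5′ to 3′ along the gene, and capitals mark the cores.
NDUFA9 chr12:4648864-4649163 (+): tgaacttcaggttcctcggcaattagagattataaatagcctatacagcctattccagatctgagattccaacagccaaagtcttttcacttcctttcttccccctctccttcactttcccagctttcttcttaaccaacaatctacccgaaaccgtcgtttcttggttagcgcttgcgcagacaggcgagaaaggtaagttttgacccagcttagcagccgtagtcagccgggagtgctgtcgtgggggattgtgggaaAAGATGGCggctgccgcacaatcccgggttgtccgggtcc
UQCRC1 chr3:48609597-48609896 (-): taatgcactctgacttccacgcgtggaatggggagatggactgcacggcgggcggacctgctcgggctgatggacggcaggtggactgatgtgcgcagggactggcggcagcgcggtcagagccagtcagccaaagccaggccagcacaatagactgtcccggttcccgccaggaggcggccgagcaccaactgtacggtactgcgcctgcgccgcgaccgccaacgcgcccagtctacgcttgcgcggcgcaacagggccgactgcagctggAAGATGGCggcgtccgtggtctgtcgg
CYCS chr7:25125211-25125510 (-): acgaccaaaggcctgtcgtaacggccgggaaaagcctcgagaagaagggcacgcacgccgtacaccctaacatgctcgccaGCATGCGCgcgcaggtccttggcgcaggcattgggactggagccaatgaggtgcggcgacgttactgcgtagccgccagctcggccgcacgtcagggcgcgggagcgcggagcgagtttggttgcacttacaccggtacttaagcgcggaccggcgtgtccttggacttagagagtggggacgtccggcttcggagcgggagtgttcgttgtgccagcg
COX7A2L chr2:42361168-42361467 (-): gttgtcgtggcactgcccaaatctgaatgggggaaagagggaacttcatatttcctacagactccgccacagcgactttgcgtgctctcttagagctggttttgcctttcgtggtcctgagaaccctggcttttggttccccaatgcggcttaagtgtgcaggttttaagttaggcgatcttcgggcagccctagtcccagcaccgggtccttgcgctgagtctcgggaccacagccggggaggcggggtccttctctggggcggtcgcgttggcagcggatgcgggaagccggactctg
The YY1 core begins 10 bases after the start in NDUFA9 and 23 bases after it in UQCRC1, both in the direction of the gene. The NRF1 core of CYCS begins at position -169 from the start.

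The regulators themselves did not pass the test. Of 20 genes for mitochondrial DNA expression and biogenesis, 0 were called higher and 0 lower by limma, beside 11.4% called over all genes. At an unadjusted p under 0.05, 3 were higher and 1 lower, beside 2160 and 1720 of the 13949 genes. The median difference of the 20 was -0.0081. NRF1 differed by -0.063 (adjusted p = 0.644), GABPA, the DNA-binding subunit of GABP, by -0.11 (adjusted p = 0.439) and PPARGC1A, the coactivator of mitochondrial biogenesis, by -0.043 (adjusted p = 0.285). YY1 differed by -0.097 with no overlap (adjusted p = 0.112). TFAM, which packages mitochondrial DNA, differed by -0.076 (adjusted p = 0.544). Of the 20, 10 differences were positive and 10 negative. The 3 higher at an unadjusted p were the coactivator PPRC1 (0.22, adjusted p = 0.0567), the mitochondrial helicase TWNK (0.18, adjusted p = 0.0777) and POLRMT, the mitochondrial RNA polymerase (0.11, adjusted p = 0.155).

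Other genes of the same membrane and pathway were read against 11.4% called over all genes and 17.9% of those above level 10. Of 44 assembly factors outside the NDUFAF group, 4 rose and 0 fell (9.09%). SDHAF2, which attaches flavin to SDHA, read 12.38, 12.33 and 12.47 against 12.03, 11.97 and 12.05, a difference of 0.38 (SE 0.042, limma adjusted p = 0.0132). COX10, which acts in haem A synthesis, rose by 0.18 (adjusted p = 0.0404) and COX14, which helps make the first complex IV subunit, by 0.18 (adjusted p = 0.0453). Of 15 pyruvate dehydrogenase and citric acid cycle enzymes, 3 rose and 0 fell (20%): the isocitrate dehydrogenase subunit IDH3G by 0.22 (adjusted p = 0.0145), citrate synthase, CS, by 0.13 (adjusted p = 0.0288) and OGDH by 0.12 (adjusted p = 0.0173).

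Carriers, cristae and coenzyme Q genes had the largest share, with 7 of 30 outside the name rule rising and 0 falling (23.3%). The 30 genes had a median difference of 0.092, with 24 positive. COQ2, which attaches the tail to the coenzyme Q ring, read 10.99, 11.05 and 11.09 in miR-17 TuD and 10.41, 10.46 and 10.47 in NC TuD. All miR-17 TuD values lay well above, by 0.60 (SE 0.03), a 1.51-fold change with a limma adjusted p of 0.00369. COQ4, a further coenzyme Q gene, rose by 0.19 (adjusted p = 0.0419) and the prohibitin PHB1, which scaffolds the inner membrane, by 0.18 (adjusted p = 0.0162). VDAC1, VDAC2, SLC25A5 and IMMT made up the rest, at 0.12 to 0.14.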

How the data were processed

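Total RNA from 6 Hep3B samples (3 miR-17 TuD, 3 NC TuD) was hybridised to Affymetrix HG-U133 Plus 2 arrays. The deposited values are log2 expression per probe set, as their range of 2.12 to 16.3 shows; RMA and GCRMA are named per the submitters' processing notes, without role, order or version. Normalization was kept. The number of arrays limits the precision.

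Probe sets with exactly 1 platform symbol were used. Where a gene had several, the one of highest mean level stood for it, probe sets at or under the 40th percentile of means (2.14) were left out, and limma 3.58.1 (lmFit, eBayes, 2-sided, R 4.3.3) was fitted over all genes or all probe sets with Benjamini-Hochberg adjustment, threshold 0.05. Signs were counted beyond 0.001 log2. The same scripts were tested on simulated data.

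The members and gene lists were chosen with earlier results of these data known, so no test was made over them. Named were the called members, the extremes of each complex by difference and level, all SDH genes, CYC1, CYCS, paired isoforms, genes whose probe sets disagree and up to 3 called genes per other list; further subunits, regulators and carriers were named after their values were seen. The level bands were chosen after seeing the data. Alternatives covered the filter, scaling, variance model, probe set choice, replicate block and leaving out each array.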

Additional observations from a re-analysis of the deposited data

How the results depend on the processing

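No member gene was called lower in any alternative run. Against 7 called, 4 passed with no filter on low values (3.99% of all genes), 11 with arrays centred on their medians (15.4%) and 3 with probe sets averaged (10.6%). When 1 array was left out, 1 to 6 passed (2.68% to 8.91% of all genes). Against 5 called member probe sets, 1 passed with no filter, 9 under the 60th percentile filter (8 higher, 1 lower) and 9 with median centring (7 higher, 2 lower). When probe sets with suffix s_at or x_at were left out 3 passed, and with the replicate block 0 did. With 1 array left out 1 to 3 passed (0 to 2 higher, 0 to 1 lower). Quantile normalization and array weights each gave 1 lower. The share over all probe sets is not given for these runs, so the counts are not read as a result about the members. NDUFS1 reversed to -0.0008 with s_at and x_at probe sets left out, where 229647_at stood for the gene. It was -0.0061 with its probe sets averaged, a mean that took in weak ones such as 235321_at, near level 2.6. Why the NDUFS1 probe sets disagree was not tested. Arrays with the same replicate number correlated in their deviations from the group mean at 0.0315, 0.13 and 0.101. Arrays with different numbers did so at -0.1 to 0.001, lower in each case. The main fit did not pair the arrays, and whether the replicate numbers mark a shared batch was not tested. With the replicate block 6 member genes passed, 4 of them among the 7, or 6.98% of members against 5.89% of all genes. COX7A2L, at a limma adjusted p of 0.0504, NDUFV3 and NDUFS1 were lost. The alternative backgrounds by level were chosen after seeing the data. No scaling moved the median of all genes by more than 0.023 log2, and the share of members with a positive difference ranged from 64% to 87.2%. Differences under about 0.08 log2, the median half-width of a 95% interval for a subunit, are at the limit of 3 arrays a group.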
